A study of Mus musculus and Sus scrofa with 30 samples.

Results

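The genes described here are 10 cyclic nucleotide phosphodiesterases, Pde3a, Pde3b, Pde4a, Pde4b, Pde4d, Pde7a, Pde7b, Pde8a, Pde8b and Pde10a, in fat-forming cells of mouse and pig. Each was found by its symbol, once in the mouse table of 24843 genes and once in the pig table of 34307 genes. The list was chosen by function and with results of these data in view: in the pig cells, PDE4B and PDE7B were known to be lower with the plant compounds, and PDE4D to differ from additivity. The values of the 10 genes in the 4 pig contrasts that chose them (dicoumarol, magnolol and the combination against vehicle, and the interaction), and in the differences between those contrasts, are therefore given as a description with no p-value. Counts called there stand beside the share over all genes, and nothing is read from them. Genes outside the list keep their adjusted p. Of the 10 genes, 8 passed a minimum mean of 10 normalized counts over the 15 mouse libraries and 9 over the 15 pig libraries.

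The study measured bulk RNA-seq on day 5 of adipogenic induction in 2 systems, with 5 groups of 3 libraries in each. 3T3-L1 is a mouse embryonic fibroblast line that can form adipocytes. DFAT cells are porcine fat cells that have returned to a dividing, fibroblast-like state. The groups of both systems were DMSO vehicle, dicoumarol (an anticoagulant of the coumarin class), magnolol (a lignan from the bark of magnolia), dicoumarol together with magnolol, here called the combination, and rosiglitazone (a drug that activates PPARγ, the receptor that drives fat cell formation). All groups, vehicle included, also received the phosphodiesterase inhibitor isobutyl methylxanthine (IBMX), at 37.5 µM in 3T3-L1 and 12.5 µM in DFAT. The 3T3-L1 medium further held insulin at 0.75 µg/mL, dexamethasone at 75 nM and 10% serum. The DFAT medium held dexamethasone at 0.5 µM, biotin at 20 µM, pantothenate at 10 µM and 2% serum. The doses of the compounds, the length of exposure to IBMX and whether replicates came from separate cultures or animals were not found in the labels, so p-values measure the spread between these samples, which may be technical.

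Cyclic AMP and cyclic GMP are second messengers made by cyclases, and phosphodiesterases end their signal by cutting the cyclic phosphate bond. In fat cells cAMP activates protein kinase A, which drives lipolysis and phosphorylates the transcription factor CREB, and a cAMP pulse is one of the triggers of adipogenesis in culture. IBMX blocks most of the family, while the PDE8 enzymes are known to be insensitive to it. PDE3 enzymes cut both messengers and are inhibited by cGMP, PDE4, PDE7 and PDE8 enzymes are specific for cAMP, and PDE10A cuts both.

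Depth, estimated from the smallest steps of the values, ranged from 22.8 to 30.7 M reads over the 3T3-L1 libraries and from 44.8 to 70.5 M over those of DFAT. The 16 adipocyte markers checked (Adipoq, Fabp4, Plin1 and others) were all listed in both tables and 15 passed the minimum in each, while RETN was listed at 0 in every DFAT library. Their summed level was 54398 to 73068 with vehicle and 359575 to 610392 with rosiglitazone in 3T3-L1, and 25245 to 27142 and 97622 to 106848 in DFAT. For dicoumarol the DFAT sums were 31226 to 33776, for magnolol 47827 to 54970 and for the combination 75536 to 81401. Of the fibroblast and preadipocyte markers 11 of 11 were listed and passed in 3T3-L1, against 9 and 8 of 11 in DFAT, where DLK1 stayed under the minimum. In 3T3-L1 their sum was 619613 to 649428 with vehicle and 316259 to 426454 with rosiglitazone, and that of smooth muscle and pericyte markers 2961 to 5667 and 1421 to 2627. Summed endothelial markers did not exceed 29.5 in any 3T3-L1 library or 241 in any DFAT library. Summed smooth muscle and pericyte markers in DFAT were 107176 to 127992 with vehicle and 181612 to 199910 with the combination, and summed fibroblast markers 4775635 to 4866229 and 6174607 to 7574684. The part of adipocyte and other cell content in the phosphodiesterase results below was not tested.

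Mouse promoter windows are shown first because PDE4 genes are known as targets of cAMP signalling, and the cAMP response element is a short motif that can be read by eye. RefSeq windows of 300 bases (250 before to 50 after a start, GRCm38.p6) were at hand for 7 of the 10 genes, 17 windows in all; Pde3a, Pde3b and Pde7a had none. None of the 17 held the full element TGACGTCA, which occurred in 1.79% of all 32851 mouse windows. The shorter element TGACG, on either strand and also part of the full one, was found in 4 windows, 1 each of Pde4a, Pde4b, Pde8a and Pde8b, against 20.8% of all windows. The matches of the first 3 genes lay before the start and are printed 5′ to 3′ on the gene's strand, with the shorter element in capitals (CGTCA is its form on the other strand).
Pde4a, chr9:21184001-21184100, plus strand, with 2 GENCODE vM21 transcripts of the gene running across it and an exon of neither there: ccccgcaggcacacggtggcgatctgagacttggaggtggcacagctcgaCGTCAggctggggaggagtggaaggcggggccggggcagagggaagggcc
Pde4b, chr4:102421508-102421537, plus strand, with 6 transcripts of the gene across it, 1 of them with an exon there: tgatttggctgcaCGTCAattttctcatct
Pde8a, chr7:81213168-81213197, plus strand, with 0 transcripts of the gene across it: agctgctttgcatTGACGccagcagccgct
A match is a description of letters, and no binding was measured.

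In DFAT cells PDE4B, PDE4D and PDE7B were lower with dicoumarol, magnolol and the combination than with vehicle, and PDE3B was higher with the combination. The other 5 genes that passed the minimum differed by less than 0.50 on the log2 scale in each of these comparisons. PDE4B and PDE4D are cAMP-specific enzymes whose short forms are known to be induced by cAMP itself. Fold changes are on the scale of log2(normalized count + 1), so the change of a low gene is understated, and each SE is the moderated one of limma. Bulk RNA cannot tell fewer cells of a type from less RNA per cell.

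PDE4B (ENSSSCG00000003805, chromosome 6, 146166688 to 146719682, minus strand, on a pig build that is not given) had 1676, 1721 and 1255 normalized counts in the vehicle libraries. Dicoumarol libraries had 635, 825 and 443, magnolol libraries 609, 853 and 539, and combination libraries 492, 578 and 362. All 9 of these treated libraries lay below the lowest vehicle library. The log2 fold changes were −1.32, −1.23 and −1.71 (SE 0.23 each), which is 40.1%, 42.6% and 30.6% of the vehicle level. Within every group the third library was the lowest and the second the highest. With rosiglitazone PDE4B had 1103, 1281 and 762, and the highest of these passed the lowest vehicle library.

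PDE4D (ENSSSCG00000016929, chromosome 16, 37897302 to 39306364, minus strand) showed less spread between libraries. It had 1299, 1171 and 1308 normalized counts with vehicle and 503, 536 and 525 with dicoumarol. It had 661, 629 and 660 with magnolol and 465, 550 and 478 with the combination. The 9 treated libraries did not exceed 661 and the vehicle libraries did not fall under 1171. The log2 fold changes were −1.27, −0.95 and −1.34 (SE 0.081). With rosiglitazone the libraries read 1042, 1174 and 1029, and the highest of these passed the lowest vehicle library.

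PDE7B (ENSSSCG00000004165, chromosome 1, 27958270 to 28302666, minus strand), a high-affinity cAMP-specific enzyme, had 1361, 1562 and 1325 normalized counts with vehicle. Dicoumarol gave 533, 609 and 523, magnolol 735, 947 and 807, and the combination 497, 544 and 550. All treated libraries were below vehicle, and the magnolol libraries were above those of dicoumarol and of the combination. The log2 fold changes were −1.35, −0.77 and −1.41 (SE 0.10). With rosiglitazone it had 786, 832 and 772, which is in the range of magnolol.

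PDE3B (ENSSSCG00000013388, chromosome 2, 44412833 to 44726216, minus strand), the phosphodiesterase through which insulin is known to restrain lipolysis in fat cells, went the other way. It had 71.0, 63.5 and 82.5 normalized counts with vehicle, 76.0, 81.4 and 70.8 with dicoumarol, and 86.3, 111 and 90.5 with magnolol. The combination gave 134, 153 and 161 and rosiglitazone 213, 242 and 189. Dicoumarol overlapped vehicle, while magnolol, the combination and rosiglitazone were each above all vehicle libraries and did not overlap one another. The log2 fold changes were 0.077, 0.40 and 1.04 (SE 0.15) for dicoumarol, magnolol and the combination.

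**Figure D1:**
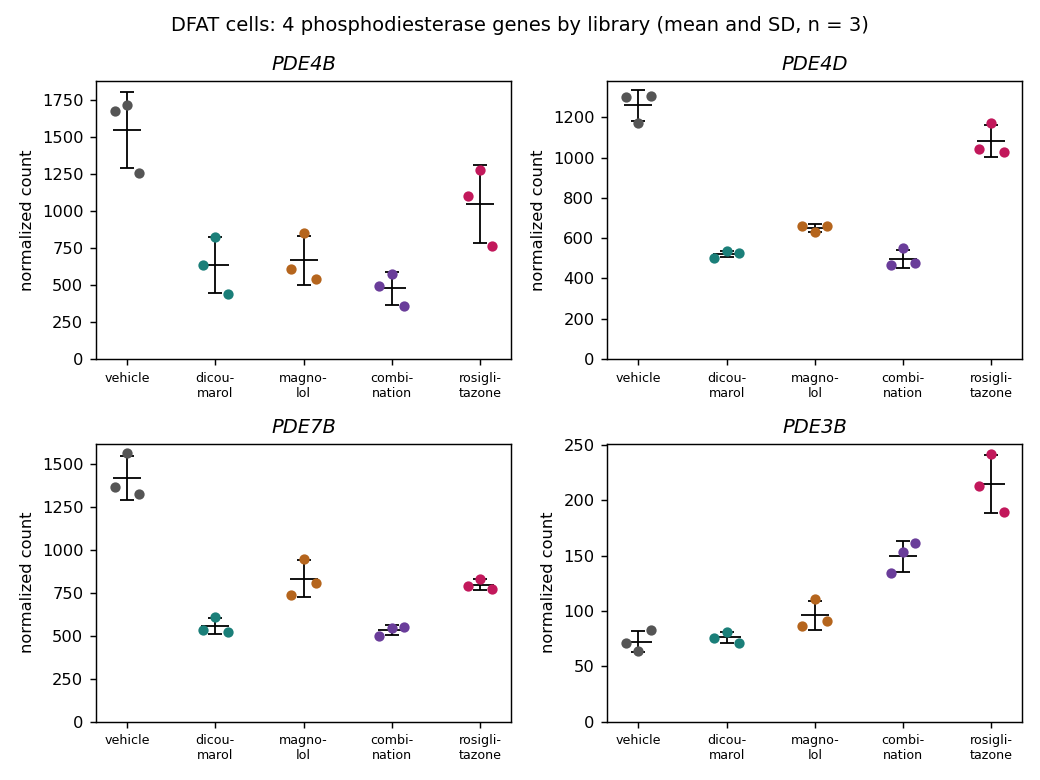
Normalized counts of PDE4B, PDE4D, PDE7B and PDE3B in the 15 DFAT libraries (y axis, from 0) by group (x axis); points are libraries, bars the mean and SD of 3. PDE4D lies between 1171 and 1308 with vehicle and between 465 and 661 with the plant compounds, while PDE3B reaches 161 with the combination and 242 with rosiglitazone.

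The remaining pig genes differed less between groups. PDE8A, one of the IBMX-insensitive enzymes, had group means of 3987 to 4301 normalized counts, PDE3A 2858 to 3375, PDE4A 1771 to 1961, PDE7A 133 to 153 and PDE8B 125 to 161. The dicoumarol libraries of PDE3A, at 2712, 2841 and 3020, all lay below its vehicle libraries of 3164 to 3373, with a log2 fold change of −0.19 (SE 0.068). PDE10A was listed at 0 to 3.74, under the minimum. Summed over the 10 genes, the level was 13973 ± 161 (SD, n = 3) with vehicle, 10941 ± 154 for dicoumarol, 11523 ± 283 for magnolol, 11238 ± 280 for their combination and 12770 ± 869 under rosiglitazone. The sums of the 9 libraries with plant compounds, at most 11836, lay under the lowest vehicle sum of 13820. At an adjusted p under 0.05, 3 of 9 genes were called for dicoumarol beside 1.94% of all 14819 genes tested, 3 of 9 for magnolol beside 4.22%, and 4 of 9 for the combination beside 10.2%. Since these contrasts chose the genes, nothing is read from the counts, from the sums above or from the medians that follow. The sums include PDE4B, PDE4D and PDE7B, so their order is partly set by the choice. The median log2 fold change of the 9 genes was −0.19, −0.091 and −0.11, and that of all genes lay within 0.010 of 0.

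PDE3B and PDE4A each lie opposite a more abundant gene in the pig table. PSMA1, a proteasome subunit gene, overlaps PDE3B on the other strand, and CDC37, a kinase co-chaperone gene, overlaps PDE4A. The libraries marked the strand, but the strand setting used in counting is not given, so reads of the partners could be mixed. The PSMA1 group means were 2159 ± 119 (SD, n = 3) with vehicle, 1983 ± 50.8 with the combination and 2070 ± 25.6 with rosiglitazone, and its log2 fold changes with these treatments were −0.12 and −0.059 (limma adjusted p 0.185 and 0.62). Whether reads of PSMA1 entered the PDE3B values was not tested. CDC37 group means were 5639 to 6072.

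With magnolol and dicoumarol together, PDE4B, PDE4D and PDE7B stood above the sum of their single log2 fold changes. The difference between combination and sum was 0.88 (SE 0.11) for PDE4D, 0.84 (SE 0.33) for PDE4B and 0.71 (SE 0.14) for PDE7B. It was 0.56 (SE 0.21) for PDE3B, which lay above its sum, and 0.50 (SE 0.20) for PDE8B, and between −0.038 and 0.30 for the other 4 genes. The interaction called 1 of 9 genes, PDE4D, beside 0.081% of all genes. It was one of the contrasts that chose the list, so nothing is read from that count.

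**Figure D2:**
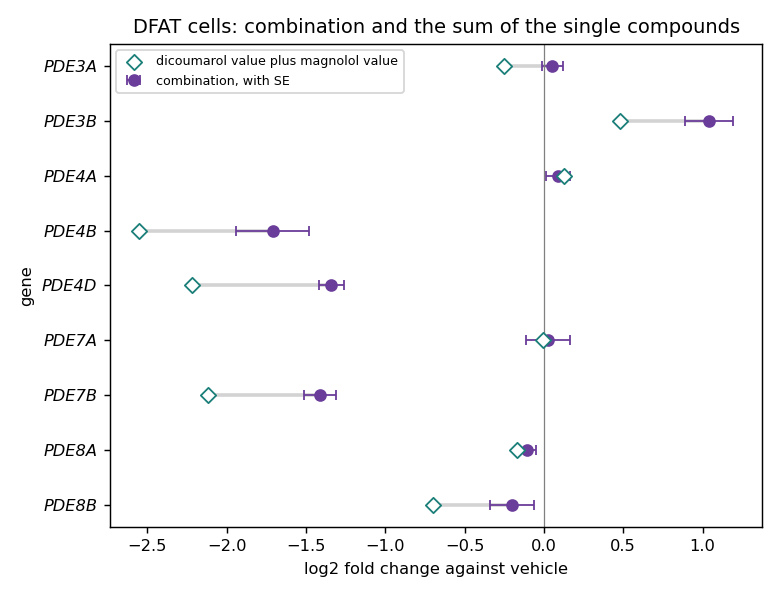
Log2 fold changes against vehicle in DFAT cells (x axis) for the 9 tested genes (y axis): filled circles with SE are the combination, diamonds the dicoumarol value plus the magnolol value. PDE4B, PDE4D and PDE7B lie 0.84, 0.88 and 0.71 to the right of their sums, and PDE3B 0.56.

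The combination against each single compound is the difference of contrasts that chose the genes, so it too is described without a p-value. Against dicoumarol alone, PDE3B was higher with the combination by 0.96 (SE 0.15), at 149 ± 13.5 against 76.1 ± 5.29 normalized counts (SD, n = 3). It was the 1 gene of 9 called, beside 2.35% of all genes. PDE4B, PDE4D and PDE7B differed by −0.39, −0.071 and −0.063 in that comparison. Against magnolol alone, PDE7B differed by −0.64 (SE 0.10), PDE4D by −0.39 (SE 0.081), PDE3B by 0.64 (SE 0.15) and PDE4B by −0.48 (SE 0.23). The first 3 had no overlap between the libraries of the groups, and those of PDE4B overlapped. How many of all genes lack such overlap was not counted, so nothing is read from it. PDE7B and PDE4D made 2 of 9 called, beside 0.621% of all genes. PDE4D was no longer called in 5 of the 6 fits that left out 1 library; the exception left out combination replicate 2. The replicate numbers pair the magnolol, combination and rosiglitazone libraries, and with the number as a block PDE3B and PDE4B were called as well, 4 of 9 beside 1.96% of all genes. Because of the choice, nothing is read from these calls or from their changes between fits.

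With rosiglitazone, PDE7B was lower and PDE3B higher than with vehicle in DFAT cells, while PDE4B and PDE4D did not pass in the main fit. Against vehicle PDE7B fell by 0.83 (SE 0.10, limma adjusted p 1.0e-05) to 797 ± 31.5, and PDE3B rose by 1.56 (SE 0.15, limma adjusted p 1.1e-06), from 72.3 ± 9.55 to 215 ± 26.5 (SD, n = 3). All 3 rosiglitazone libraries lay beyond all 3 vehicle libraries for both genes. PDE4B differed by −0.58 (SE 0.23, limma adjusted p 0.14) and PDE4D by −0.22 (SE 0.081, limma adjusted p 0.0992), with overlapping libraries. Each PDE4B library with rosiglitazone lay below the vehicle library of the same number. With the number as a block PDE4B passed (limma adjusted p 8.7e-05), which made 3 of 9 called beside 16% of all genes. Whether the number pairs these groups is not settled. Without the block, the 2 of 9 genes called stand beside 10.8% of all genes. This contrast shares its vehicle libraries with those that chose the genes, so its p-values are not independent of the choice.

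Set directly against the combination, rosiglitazone gave higher values of all 4 genes. PDE4D was higher by 1.12 (SE 0.081, limma adjusted p 1.2e-07), with 1029 to 1174 normalized counts against 465 to 550. PDE4B was higher by 1.13 (SE 0.23, limma adjusted p 0.00268), PDE7B by 0.59 (SE 0.10, limma adjusted p 0.00035) and PDE3B by 0.52 (SE 0.15, limma adjusted p 0.0226). No rosiglitazone library overlapped a combination library in any of the 4, a description without a share over all genes, which was not counted. The combination libraries took part in choosing the genes, so these p-values are not independent of the choice either. PDE4B and PDE7B were known to be low there, which favours a higher value with rosiglitazone in advance. Nothing is therefore read from the count that follows. These are 4 of 9 genes, all higher, beside 17% of all genes called in either direction. The PDE3B call was lost without combination replicate 1 (limma adjusted p 0.0961) and without rosiglitazone replicate 2 (0.0873), and when only the compared groups were fitted (0.0573). With the replicate number as a block, which pairs these 2 groups, it held (limma adjusted p 0.015), beside 24.9% of all genes called.

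In 3T3-L1 cells no phosphodiesterase gene passed the test with dicoumarol, magnolol or the combination, and the pig genes that were low had mouse counterparts near their vehicle level. Pde4b (ENSMUSG00000028525, chromosome 4, 101944740 to 102464456, plus strand) had 282, 505 and 210 normalized counts with vehicle, 305, 396 and 195 under dicoumarol, 331, 417 and 262 under magnolol, and 339, 394 and 227 when both were given. The groups overlapped throughout, and the second library was the highest of each. Pde4d (ENSMUSG00000021699, chromosome 13, 108586482 to 110089995, plus strand) had 561, 733 and 503 with vehicle, and 470 to 685 over the 9 libraries with plant compounds. Pde7b was low in these cells, at 15.1 to 39.4 with vehicle and 10.7 to 38.1 with the plant compounds. The submitters' processing notes name GRCm38, but none of the 10 mouse genes had the start of a GRCm38 annotation while all 10 had its length, so the build of these coordinates is not settled.

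The counts called were 0 of 8 for dicoumarol beside 0% of all 15723 genes, 0 of 8 for magnolol beside 1.23%, and 0 of 8 for the combination beside 5.22%. At an unadjusted p under 0.05, limma gave 0, 0 and 1 of the 8; for dicoumarol 393 of all genes were under that line. The 95% interval for dicoumarol ran from −0.78 to 0.55 for Pde4b, from −0.55 to 0.36 for Pde4d and from −1.2 to 0.96 for Pde7b. The replicate numbers pair the 3T3-L1 libraries, and with the number as a block these intervals ran from −0.37 to 0.14, from −0.36 to 0.17 and from −0.77 to 0.53. Pde10a and Pde8b differed by more than 0.5 without passing. Pde10a with the combination was at −0.61 (SE 0.27, limma adjusted p 0.252), with 73.0, 84.1 and 85.4 normalized counts below the vehicle libraries' 128, 150 and 98.8. Pde8b with magnolol was at −0.52 (SE 0.44, limma adjusted p 0.797), with overlapping libraries. The combination called 0 of 8 against dicoumarol beside 0.0254% of all genes, and 0 of 8 against magnolol and for the interaction beside 0% each; limma gave 0 of 8 at an unadjusted p under 0.05 in all 3 and the replicate block gave 0 as well.

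Rosiglitazone lowered Pde10a in 3T3-L1 cells. Pde10a (ENSMUSG00000023868, chromosome 17, 8744204 to 9205480, plus strand), an enzyme known for its abundance in the striatum, had 128, 150 and 98.8 normalized counts with vehicle and 26.2, 66.3 and 46.9 with rosiglitazone. The groups did not overlap. The log2 fold change was −1.49 (SE 0.27, limma adjusted p 0.000449), and against the combination it was −0.88 (SE 0.27, limma adjusted p 0.0357). The latter call was lost in 5 of 6 fits that left out 1 library, with limma adjusted p of 0.0585 to 0.192; it held without rosiglitazone replicate 2. Without rosiglitazone replicate 1 the difference was −0.52. The call was also lost with no minimum (0.0537), with no variance trend (0.0512) and when only the compared groups were fitted (0.101). With the replicate number as a block, which pairs these libraries, Pde10a was called against the combination (limma adjusted p 0.00459).

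Pde3b (ENSMUSG00000030671, chromosome 7, 114014516 to 114138486, plus strand) rose with rosiglitazone by 0.61 (SE 0.22, limma adjusted p 0.0363). Its libraries read 191, 289 and 128 with vehicle and 247, 310 and 326 with rosiglitazone, and they overlapped. That call did not hold when vehicle replicate 1 (limma adjusted p 0.0746) or 3 (0.198) was left out, nor without rosiglitazone replicate 2 (0.0828) or 3 (0.11); without vehicle replicate 3 the log2 fold change was 0.32. It was also lost with no variance trend (0.0539) and when only the compared groups were fitted (0.106). With the replicate number as a block it held (limma adjusted p 0.0189). Each Pde3b library with rosiglitazone lay above the vehicle library of the same number. Pde7a (ENSMUSG00000069094, chromosome 3, 19277272 to 19365486, minus strand), the other PDE7 gene, fell by 0.28 (SE 0.11, limma adjusted p 0.0463), from 839 to 1023 normalized counts down to 710 to 804. That call was lost without vehicle replicate 2 (0.182) or 3 (0.0821) and without any one of the rosiglitazone libraries (0.0526 to 0.157). It was also lost under 4 other settings (no minimum 0.0643, no variance trend 0.06, TMM factors 0.0522, only the compared groups 0.115). With the replicate number as a block the Pde7a call held (limma adjusted p 0.0234).

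In all, 3 of 8 genes were called for rosiglitazone against vehicle, 1 higher and 2 lower, beside 40.1% of all genes, a share near the background. Against the combination 1 of 8 was called beside 18.3%. With the replicate number as a block 5 of 8 were called against vehicle, beside 49.8% of all genes. Pde4d, with a log2 fold change of −0.55, reached a limma adjusted p of 0.00167 in place of 0.0528, and Pde4a, at −0.27, reached 0.00785 in place of 0.0787. Pde4d had 318, 602 and 346 normalized counts with rosiglitazone, and each lay below the vehicle library of the same number. Without the block, Pde4d passed when rosiglitazone replicate 2 (0.00208, log2 fold change −0.83) or vehicle replicate 3 (0.0403) was left out. Against the combination the block gave 3 of 8 beside 33.3% of all genes, with Pde4d at −0.48 (limma adjusted p 0.00781 in place of 0.125) and Pde7a at −0.31 (0.0217 in place of 0.0538). Without the block, Pde4d passed there when rosiglitazone replicate 2 was left out (0.00822, log2 fold change −0.77). The ribosomal pseudogene Rps3a3 lies inside Pde4d on the same strand; its log2 fold change with rosiglitazone was 0.089 (limma adjusted p 0.587).

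**Figure D3:**
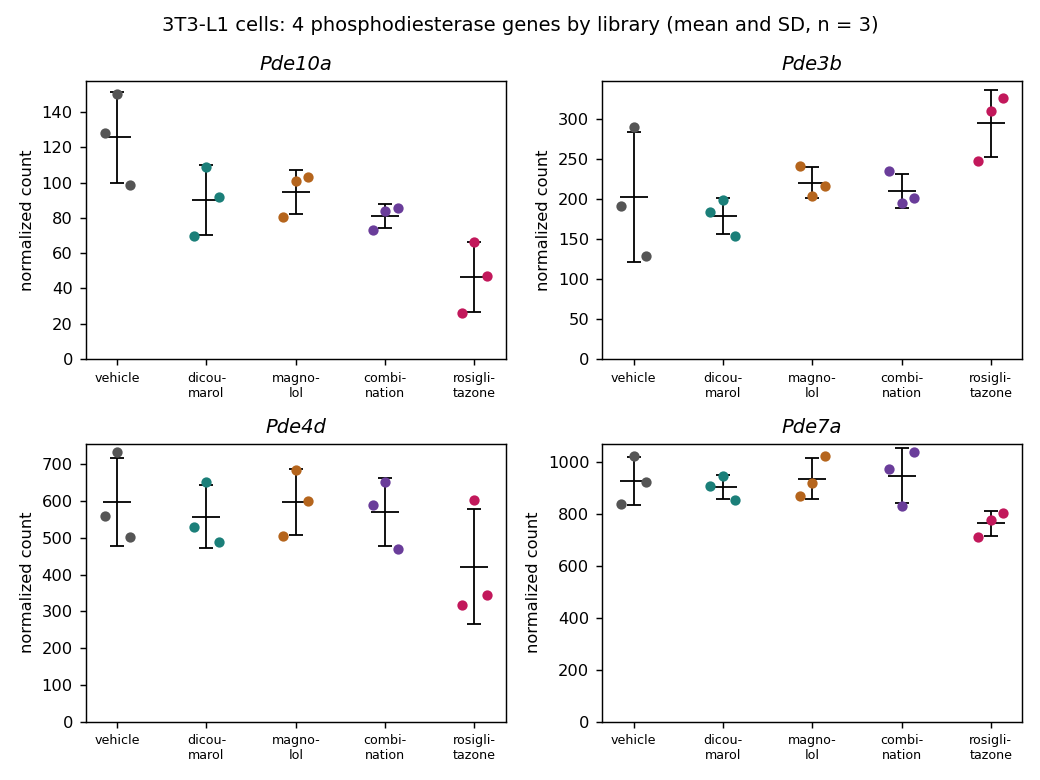
Normalized counts of Pde10a, Pde3b, Pde4d and Pde7a in the 15 3T3-L1 libraries (y axis, from 0) by group (x axis); points are libraries, bars the mean and SD of 3. Pde10a is at 26.2 to 66.3 with rosiglitazone against 98.8 to 150 with vehicle, while the Pde3b and Pde4d libraries of these groups overlap.

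Pde3a and Pde8a were under the minimum mean in 3T3-L1 cells, Pde3a narrowly at 9.8. Pde3a, the other PDE3 gene, had 11.6, 12.0 and 12.8 normalized counts with vehicle and 4.19, 4.35 and 4.94 with rosiglitazone, and 6.67 to 13.7 in the other groups. The rosiglitazone libraries lay below all 12 others. With no minimum its log2 fold change against vehicle was −1.26 (SE 0.35, limma adjusted p 0.0123), and it was called as well in the 3 fits that left out a rosiglitazone library, where its mean passed the minimum (limma adjusted p 0.0135 to 0.0222). Pde8a was listed at 0 to 5.07 and was not called with no minimum (limma adjusted p 0.527). Per kb of summed exon length (GENCODE vM21, matched by gene identifier), the vehicle levels were ordered Pde7a at 120 ± 11.9, Pde4a at 87.5 ± 10.1, Pde4d at 49.9 ± 9.96, Pde4b at 31.5 ± 14.6, Pde3b at 22.2 ± 8.9 and Pde10a at 9.78 ± 2.0 normalized counts per kb (SD, n = 3). Below them came Pde8b at 3.85 ± 2.16, Pde7b at 2.11 ± 0.987, Pde3a at 0.953 ± 0.048 and Pde8a at 0.377 ± 0.43. Neighbours whose libraries overlapped were Pde4d with Pde4b, Pde4b with Pde3b, and Pde8b with Pde7b. Pig genes were not ordered, since no pig exon lengths were used.

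The fold changes of 7 genes that passed in both tables were set against each other. For rosiglitazone the rise of PDE3B was larger in DFAT than in 3T3-L1, by 0.95 (SE 0.26, 95% interval 0.41 to 1.49, adjusted p 0.00524 over 9369 shared symbols, limma estimates), and every rosiglitazone library was above all vehicle libraries in DFAT but not in 3T3-L1. It was the 1 gene of 7 called, beside 38.8% of all shared symbols. PDE4B differed by −0.74 (95% interval −1.53 to 0.061), PDE4D by 0.33 (−0.15 to 0.81) and PDE7B by −0.51 (−1.6 to 0.59), none of which passed. These tests used the fits without the replicate block, although the number pairs the 3T3-L1 libraries. With the block the SE of Pde4b was 0.12 in place of 0.31 in 3T3-L1. In DFAT, where the pairing with vehicle is not settled, it was 0.083 in place of 0.23. The differences were not tested with the block, so no likeness of the systems is read from them. For dicoumarol, where the pig values chose the genes, the differences are a description: −1.2 (95% interval −2 to −0.41) for PDE4B, −1.17 (−1.65 to −0.69) for PDE4D and −1.23 (−2.32 to −0.13) for PDE7B. For magnolol they were −1.32 (−2.12 to −0.52), −0.95 (−1.43 to −0.48) and −1.02 (−2.11 to 0.076), and the interval of PDE7B included 0. For the combination they were −1.72 (−2.51 to −0.92), −1.27 (−1.75 to −0.8) and −1.51 (−2.61 to −0.42). Species, medium, IBMX dose and origin of the cells differ together between the systems and cannot be told apart.

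**Figure D4:**
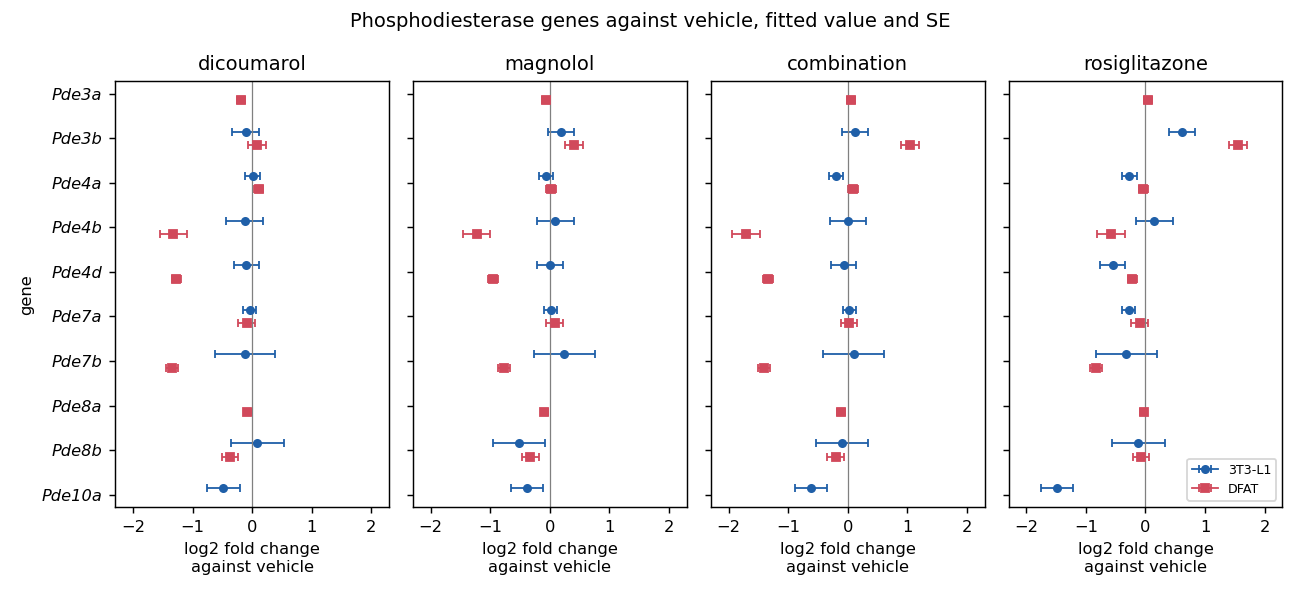
Log2 fold changes against vehicle (x axis) with SE for each phosphodiesterase gene (y axis) in 3T3-L1 (circles) and DFAT (squares), 1 panel a treatment; genes under the minimum mean are left out. Pde4b, Pde4d and Pde7b lie below −0.7 in DFAT with the 3 plant treatments and between −0.12 and 0.24 in 3T3-L1.

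Over the 15 DFAT libraries the log2 values of PDE4B, PDE4D and PDE7B ran together, with Pearson r of 0.877 for PDE4B with PDE4D, 0.857 for PDE4B with PDE7B and 0.855 for PDE4D with PDE7B. PDE3B had r of −0.113, 0.078 and −0.289 with them. In 3T3-L1 Pde4b had r of 0.601 with Pde3b, 0.512 with Pde4d and 0.821 with Pde7b, and Pde4d had 0.739 with Pde7b. Pde3b had r of −0.121 with Pde4d and 0.29 with Pde7b there. These coefficients are descriptions over libraries that share groups and replicate numbers. PDE4B, PDE4D and PDE7B were also chosen with their values in these DFAT libraries known. Their r with one another is thus partly set by the choice, and nothing is read from it. Among 9932 pig genes with a symbol and a mean of at least 100, those most like PDE3B were ADIPOR2 (0.971), ELOVL7 (0.969) and the fatty acid binding protein gene FABP4 (0.967), and those most like PDE4D were EDNRA (0.982), CTSC (0.971) and EREG (0.947). Most like PDE4B were RANBP3 (0.953), IGFBP2 (0.941) and VMA12 (0.937), and among those most like PDE7B were CHI3L1 (0.939) and SGK1 (0.923). In 3T3-L1 the nearest genes included others: Slc25a16 (0.967), Ppp2r2a (0.907) and Pdha1 (0.893) for Pde3b, Top2a (0.952), Riok3 (0.941) and Brd2 (0.929) for Pde4b, Crybg3 (0.969) and Gm10524 (0.957) for Pde4d, and Tcf25 (0.914), Gm50321 (0.907) and Kctd20 (0.904) for Pde7b.

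The rest of the cAMP pathway gives the setting of these genes in DFAT cells. Of 12 immediate genes known to respond to cAMP, all tested, dicoumarol lowered 3, magnolol lowered 1, and the combination lowered 5 and raised 1, beside 1.94%, 4.22% and 10.2% of all genes called. With rosiglitazone 5 were higher and none lower, beside 10.8%, and 9 were higher against the combination, beside 17%. The median log2 fold changes of the 12 were −0.56, −0.25, −0.41 and 0.21 against vehicle, where those of all genes lay within 0.010 of 0. SIK1, a kinase gene switched on by CREB, averaged 3402 normalized counts in vehicle libraries. Its means were 1578 for dicoumarol, 2579 for magnolol, 1710 for the combination and 5221 for rosiglitazone, and in that order the log2 fold changes were −1.11 (SE 0.11, limma adjusted p 1.6e-05), −0.40 (limma adjusted p 0.0517), −1.0 (8.5e-06) and 0.62 (0.001). NR4A3, an orphan nuclear receptor gene of the same kind, rose by 1.17 with rosiglitazone (SE 0.21, limma adjusted p 0.0012). In 3T3-L1, none of the 12 passed with the plant compounds. With rosiglitazone 1 was higher and 3 lower, beside 40.1% of all genes called. Sik1 was at −0.62 (limma adjusted p 1.4e-05) and Dusp1 at −0.57 (0.0208). Some genes of this list were known to move in the pig data when the list was written. The pig counts and p-values of this list are therefore a description, not an independent test.

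Protein kinase A genes of DFAT cells included the regulatory subunit gene PRKAR1A. It fell by 0.37 under dicoumarol (SE 0.064, limma adjusted p 0.00331), by 0.42 under magnolol (0.000668) and by 0.47 under the combination (8.5e-05). PRKAR2B, the regulatory subunit abundant in fat, fell by 0.20 with dicoumarol (limma adjusted p 0.0394) and rose by 0.33 with the combination (0.000227) and by 0.80 with rosiglitazone (3.7e-09). Of the 8 genes of this group that were tested, dicoumarol lowered 2, magnolol lowered 1, the combination lowered 1 and raised 1, and rosiglitazone raised 1, beside 1.94%, 4.22%, 10.2% and 10.8% of all genes. Of 5 adenylyl cyclases, the enzymes that make cAMP, 2 were higher with magnolol. ADCY7 rose by 0.46 under magnolol (SE 0.054, limma adjusted p 3.3e-05) and by 0.43 when both compounds were given (3.3e-05) and fell by 0.44 with rosiglitazone (2e-05), and ADCY9 rose by 0.20 with magnolol (0.0494).

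Receptors on either side of the cyclases changed in few cases in DFAT. Of 5 receptors that couple to Gs, which stimulates the cyclases, ADORA2B fell by 0.49 with dicoumarol (SE 0.11, limma adjusted p 0.0204) and by 0.36 with the combination (0.0421), where PTGER4 rose by 0.41 (0.0214). Of 4 that couple to Gi, which inhibits them, ADORA1, the adenosine receptor gene of fat cells, rose by 0.89 when both compounds were given (SE 0.14, limma adjusted p 0.000348) and by 1.64 with rosiglitazone (3.1e-07), and ADRA2B rose by 0.55 with rosiglitazone (0.0342); 1 of the 4 fell with magnolol and 1 with the combination. None of the 4 G protein alpha subunits passed against vehicle; GNAS was not analysed here in the pig table. Of 9 CREB family genes and coactivators, CREB3L1 rose by 0.38, 0.32 and 0.38 under the 3 plant treatments (limma adjusted p 0.0217, 0.0432 and 0.00692), and CRTC3 rose by 0.20 with rosiglitazone (0.0372). The combination called 2 of the 9 higher and 1 lower. Of 11 A-kinase anchoring proteins, AKAP6 rose by 0.39 with the combination (0.029) and AKAP12 fell by 0.37 with rosiglitazone (0.0108). None of 3 other cAMP effectors and exporters passed. Among all genes tested against vehicle, dicoumarol called 1.94%, magnolol 4.22%, both compounds given jointly 10.2%, and rosiglitazone 10.8%. The counts of these lists stand beside those shares.

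Of the other phosphodiesterase genes, 6 were tested in DFAT and 3 in 3T3-L1. None passed with the plant compounds and 1 rose with rosiglitazone in each, beside 10.8% and 40.1% of all genes called. The 3 in 3T3-L1 had median log2 fold changes of 0.58 for magnolol, 0.28 for the combination and 0.29 for rosiglitazone, and Pde1b and Pde2a among them averaged 14.7 and 10.1 normalized counts with SEs of 0.46 and 1.3. PDE1A, a calcium-activated enzyme gene, was lower in DFAT with rosiglitazone than with the combination by −0.35 (SE 0.078, limma adjusted p 0.00532). In the cGMP branch, 8 genes were tested in DFAT, where the natriuretic peptide receptor gene NPR1 rose by 0.55 under magnolol (SE 0.10, limma adjusted p 0.00196), by 0.86 under the combination (1.1e-05) and by 1.03 under rosiglitazone (9.8e-07). NOS1 fell by 1.12 with rosiglitazone (SE 0.16, limma adjusted p 8e-05).

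In 3T3-L1 the same lists moved mainly with rosiglitazone, where 40.1% of all genes were called. Mc5r, a melanocortin receptor gene coupled to Gs, rose from a mean of 33.0 normalized counts to 178 under magnolol, 241 under the combination and 763 under rosiglitazone, with log2 fold changes of 2.39, 2.83 and 4.52 (SE 0.40, limma adjusted p 0.00941, 0.000934 and 6.7e-07). Of the 6 Gs-coupled receptors, 2 were higher with magnolol and 3 each with the combination and rosiglitazone. The shares called over all genes were 1.23%, 5.22% and 40.1%. Vipr1 rose by 1.15 with rosiglitazone (limma adjusted p 4.3e-06). Of 7 Gi-coupled receptors, 3 rose and 3 fell with rosiglitazone, among them Npy1r by −2.35 (2.3e-06) and S1pr1 by −1.30 (5.7e-05). Of 5 genes of the cGMP branch, the kinase genes Prkg1 and Prkg2 fell by 2.16 and 1.31 with rosiglitazone (limma adjusted p 4.4e-07 and 1.1e-06), and Prkg2 by 0.67 with magnolol (0.0137).

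Of 7 protein kinase A genes of 3T3-L1, 4 rose and 2 fell with rosiglitazone, where 40.1% of all genes were called. The catalytic subunit gene Prkaca rose by 0.67 (limma adjusted p 3.4e-05) and the inhibitor gene Pkig by 0.70 (0.00105). Of 5 adenylyl cyclases 1 rose and 1 fell, Adcy9 by −1.09 (0.000869). The cAMP-activated exchange factor gene Rapgef3 fell by 1.53 (2.5e-06) and the exporter gene Abcc4 by 0.62 (0.000874). Among anchoring proteins 1 of 11 rose and 3 fell, with Akap1 at 0.78 (2.9e-06) and Akap11 at −0.65 (0.0106). Of 10 CREB family genes and coactivators 6 fell and none rose, with Creb3l1 at −0.58 (0.000456) and Crtc3 at −0.56 (0.00462), and 1 of 4 G protein alpha subunits fell.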

How the data were processed

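The deposited tables hold signal values: gene counts divided by DESeq2 size factors by the authors, with a table for each species, per the labels. STAR, DESeq2, bcl2fastq 2.19.1.403 and GRCm38 appear in the submitters' processing notes. The counter, the strand setting and the pig build are not given in these sources. Low values were whole multiples of 1 read (tolerance 0.02) in 81.0% to 82.3% of cases (3T3-L1) and 89.6% to 90.7% (DFAT), so reads were not recovered.

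Members and lists were chosen with earlier results of these data known. Genes with a mean of at least 10 were fitted on log2(value + 1) with limma 3.58.1 (R 4.3.3), all 5 groups in 1 model, variance trend, two-sided, Benjamini-Hochberg over all genes; the fit was tested on simulated data. Members are printed singly at an adjusted p under 0.05 or an absolute log2 fold change of at least 0.5. Pathway genes are the 2 largest called changes per list and table with a mean of at least 100. Some of the genes most like a member are not reported here. Differences between systems used the 2 fits' standard errors, without the replicate block. Deviations of same-numbered 3T3-L1 libraries from their groups correlated by over 0.1 in all 30 pairs (lowest 0.106), so the number pairs them; in DFAT this held between magnolol, combination and rosiglitazone. Listed gene ends, 1 base past the gene by their lengths, were reduced by 1. Python 3.11.15 drew the plots. Alternatives were pseudocounts, minima, scalings, the variance model, the block and left-out libraries.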

Additional observations from a re-analysis of the deposited data

Results flagged for a closer look

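The rosiglitazone effect on PDE3B differed between the systems by a test of the difference itself: the log2 fold change was larger in DFAT than in 3T3-L1 by 0.95 (SE 0.26, adjusted p 0.00524 over 9369 shared symbols, limma estimates), and 38.8% of these symbols differed. The summed adipocyte markers also moved with rosiglitazone in both systems, from 54398 to 73068 up to 359575 to 610392 in 3T3-L1 and from 25245 to 27142 up to 97622 to 106848 in DFAT; their part in the difference was not tested.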

How the results depend on the processing

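Of 39 log2 fold changes (those called, of at least 0.5, or called with the replicate block, and 1 difference between systems), none reversed in 594 recomputations. A call was lost in 34 of these recomputations and gained in 23. The fold changes were picked for being called or large and the recomputations reuse the same libraries, so a kept sign was likely in advance. For 3T3-L1 rosiglitazone against vehicle the 3 genes called became 1 with no variance trend and with only the compared groups, 5 with quantile normalization and 5 with the replicate block. For rosiglitazone against the combination the 1 gene became 0 with no minimum, with no variance trend and with only the compared groups, 2 with a minimum mean of 50, quantile normalization or TMM factors, 3 with the replicate block, and 0 to 2 when 1 library was left out. In DFAT the 1 gene called for the combination against dicoumarol became 2 with quantile normalization and 3 with the replicate block. Against magnolol the 2 genes became 1 with no minimum, with no variance trend and with only the compared groups, 4 with the replicate block, and 1 to 2 when 1 library was left out. For the interaction the 1 gene became 3 with the replicate block and 1 to 2 when 1 library was left out (2 without magnolol replicate 2). PDE4B with rosiglitazone against vehicle in DFAT passed with the replicate block (limma adjusted p 8.7e-05). Over all genes, deviations of same-numbered vehicle and rosiglitazone libraries correlated by −0.306 to 0.076, and those of vehicle and dicoumarol by 0.075 to 0.193. No pair of DFAT groups with vehicle or dicoumarol stayed over 0.1 throughout, so whether the number pairs these libraries is not settled. That PDE4B value and the block counts against dicoumarol and for the interaction depend on it. The DFAT counts for the combination against each single compound and for the interaction rest on contrasts that chose the genes, so nothing is read from them. The cause of these changes was not tested. The edgeR test planned for recovered reads was not run. The minimum mean decided on Pde3a in 3T3-L1, which was called for rosiglitazone against vehicle with no minimum. At 0 to 5.07 and 0 to 3.74 normalized counts, depth limits Pde8a in 3T3-L1 and PDE10A in DFAT.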
